A study of Mus musculus with 13 samples.

Results

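The mouse mitochondrial genome carries 37 genes, and all of them were taken by their chromosome name (MT) from the 53465 genes of the deposited TPM table (transcripts per 1000000, a share of RNA corrected for gene length that sums to 1000000 in each library). They comprise 13 protein-coding genes, 2 rRNA genes and 22 tRNA genes. RNA-seq was performed on 3 normal ovaries of WT C57BL/6 mice and on 10 MP EPO-GEMM tumors, all as bulk tissue and non-treated. MP tumors (genotype Myc;p53-/-) formed in female WT C57BL/6 mice whose ovary was electroporated at 8 to 12 wk of age with plasmids for Cas9 and an sgRNA against Trp53, a MYC transposon and a transposase, so that editing was not restricted to a cell type and each tumor, which may hold several clones, arose in an animal of its own. The labels give the WT ovaries (genotype WT) the same growth text and no age of their own, and every tumor library holds whole tumor tissue taken at end point. The numbers in the library names place the WT ovaries and MP tumors 1, 2 and 3 in library set 1, MP tumors 4, 5 and 6 in set 2 and MP tumors 7, 8, 9 and 10 in set 3, so that tumors and ovaries can be compared within set 1 alone.

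Mitochondrial DNA is transcribed from both strands as long precursor RNAs, and the tRNAs that punctuate these precursors are cut out to release the mRNAs and rRNAs between them. All of its mRNAs encode membrane subunits of the respiratory chain or ATP synthase: 7 belong to complex I (mt-Nd1, mt-Nd2, mt-Nd3, mt-Nd4, mt-Nd4l, mt-Nd5 and mt-Nd6), 1 to complex III (mt-Cytb), 3 to complex IV (mt-Co1, mt-Co2 and mt-Co3) and 2 to complex V (mt-Atp6 and mt-Atp8). The remaining subunits, and every protein that copies, transcribes or translates the mitochondrial genome, come from nuclear genes. In the ovary, mitochondria are abundant in oocytes and in steroid-producing cells, which begin steroid synthesis inside them.

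Only part of the mitochondrial transcriptome could be read from these values. Of the 13 mRNA genes, 7 had reads in every library and 6 (mt-Co2, mt-Atp8, mt-Atp6, mt-Co3, mt-Nd3 and mt-Nd4l) were listed at 0 in all 13 libraries. These 6 genes lie next to each other on chromosome MT (GRCm38, GENCODE release M21), from 7013 at the start of mt-Co2 to 10173 at the end of mt-Nd4l. All of these genes but mt-Atp8, and the start of mt-Nd4, have copies in the nuclear genome on the minus strand of chromosome 1. The copies are annotated as the genes Gm28661, Gm10925, Gm28437, Gm28438, Gm10222 and Gm28439 between 24611535 and 24615565. The first 76 bases (the read length) of mt-Co3 and mt-Nd3 are shown beside those of their copies, from the GENCODE M21 transcripts, because a read from either place would have nearly the same letters. Capitals mark bases that differ.
mt-Co3 (chrMT:8607-8682, plus strand): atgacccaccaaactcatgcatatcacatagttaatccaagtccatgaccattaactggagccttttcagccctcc
Gm28437 (chr1:24613896-24613971, minus strand): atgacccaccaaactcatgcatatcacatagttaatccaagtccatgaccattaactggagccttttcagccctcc
mt-Nd3 (chrMT:9459-9534, plus strand): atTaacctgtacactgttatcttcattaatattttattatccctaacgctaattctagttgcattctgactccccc
Gm28438 (chr1:24613044-24613119, minus strand): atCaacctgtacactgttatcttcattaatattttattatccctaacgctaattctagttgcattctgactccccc

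The copies were identical to the mitochondrial gene over their whole aligned length for mt-Co2 (681 bases), mt-Atp6 (678), mt-Co3 (783), mt-Nd4l (294) and the first 876 bases of mt-Nd4, and differed at 1 of 345 bases for mt-Nd3. Of all windows of 76 bases, 99.5% of those in mt-Co2, 99.5% in mt-Atp6, 99.9% in mt-Co3, 97.8% in mt-Nd3 and 98.6% in mt-Nd4l also occurred in a nuclear transcript. The share was 61.5% in mt-Nd4, 39.4% in mt-Co1, 5.61% in mt-Nd2 and 1.54% in mt-Nd5, and 0% in mt-Nd1, mt-Nd6, mt-Cytb and both rRNA genes. It was also 0% in mt-Atp8, for which no copy was found among the transcripts analysed here. Only its end, up to 7969, overlaps mt-Atp6, which starts at 7927 and has the copy Gm10925. The sequence of chromosome 1 between Gm10925 and Gm28661 was not available, so a copy of mt-Atp8 there was not tested. The nuclear copies were themselves at or near 0, with at most 1.95 TPM in any library for Gm28439, Gm10222, Gm28437, Gm10925 and Gm28661, while Gm28438, the copy with the differing base, ranged from 1.21 to 43.1 TPM. How reads with more than 1 match were treated is not given in the sources used here, and its part in the zeros was not tested. The 6 genes are not taken as silent, and the values below concern the other 7.

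**Figure D1:**
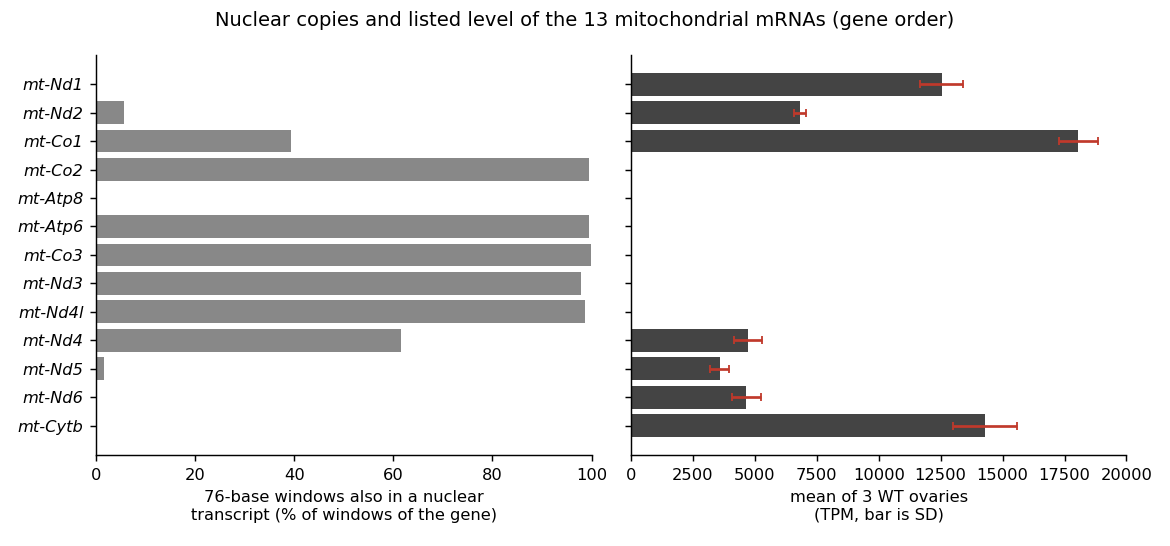
The 13 mitochondrial mRNA genes in their order on the genome, with the share of each gene's 76-base windows that also occur in a nuclear transcript (left, percent of windows) and the mean level in the 3 WT ovaries (right, TPM, error bar SD). The 5 genes with over 97% shared windows, and mt-Atp8 with 0%, have no bar on the right, while mt-Nd4 (61.5%) and mt-Co1 (39.4%) do.

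The 7 mRNAs with reads end in different ways. Several mitochondrial mRNAs lack a full stop codon in the genome and gain it only when the poly(A) tail is added, and the libraries were made from polyA-selected RNA. For 5 of the 7, the last 21 bases of the gene are shown with the stop codon, whole or partial, in capitals.
mt-Nd1 (chrMT:3687-3707): ggagtaccaccatacataTAG
mt-Co1 (chrMT:6852-6872): acctatgtaaaagtaaaaTAA
mt-Nd5 (chrMT:13545-13565): tactcaattaatctcgagTAA
mt-Cytb (chrMT:15268-15288): aaatactaaaattatatccaT
mt-Nd4 (chrMT:11524-11544): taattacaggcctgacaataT
All 5 are on the plus strand. Both kinds of ending occurred among the abundant mRNAs: in WT ovaries mt-Co1 (full stop codon) and mt-Cytb (single T) were at the highest levels.

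Reads per library, worked back from the table, ranged from 31445004 to 64013840 in WT ovaries (median 50522020) and from 3892690 to 19906507 in MP tumors (median 8543975), and the 7 mRNAs had at least 1082 reads each in every library. RNA of Trp53, the targeted gene, was at 80.7 to 85.4 TPM in WT ovaries, at 4.30 to 26.0 TPM in MP tumors 1 to 9 and at 187 TPM in the library labelled MP tumor 10. MP tumor 2 stood apart: its 10 most abundant genes took 55.1% of all TPM against 7.92% to 20.6% elsewhere. Markers of the cell types of an ovary differed between the groups, and all 5 luteal and steroidogenic genes (summed 26651 to 31907 TPM in WT ovaries, 7.27 to 782 in MP tumors), all 6 granulosa genes (3353 to 6277 against 4.54 to 1507) and all 7 oocyte genes (293 to 431 against 1.43 to 32.1) were lower in every tumor than in every ovary. The epithelial genes summed to 237 to 267 TPM in WT ovaries and 5.67 to 1152 in MP tumors, with 3 of 6 lower in every tumor. Genes of red blood cells (222 to 425 against 448 to 6126 TPM), muscle (0.226 to 0.656 against 1.64 to 663) and brown fat (0.373 to 0.562 against 0 to 49.4) reached higher sums in tumors, and those of leukocytes ranged from 98.5 to 244 TPM in ovaries and from 29.7 to 161 TPM in tumors. In bulk tissue, fewer cells of a type and less mitochondrial RNA per cell cannot be told apart, and the part of these cell types in the results below was not tested.

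Mitochondrial mRNA took a smaller share of the transcriptome in every MP tumor than in any WT ovary. The 7 mRNAs summed to 6.39%, 6.17% and 6.84% of TPM in WT ovaries 1, 2 and 3 (mean 6.47% ± 0.340, SD, n = 3) and to between 0.724% and 4.51% in MP tumors (mean 2.60% ± 1.48, SD, n = 10). The tumors were ordered by library set: the share was 0.880% ± 0.156 in the 3 tumors of set 1, 2.34% ± 0.792 in the 3 of set 2 and 4.09% ± 0.413 in the 4 of set 3 (SD). On this scale the sets did not overlap, and MP tumor 9 came nearest to the ovaries. Taken by tumor, the median of the 7 genes as a percent of their WT mean was 8.21% in MP tumor 1, the lowest, and 65.0% in MP tumor 9, the highest. As a share of the TPM of nuclear protein-coding genes, which leaves out the RNAs that fill MP tumor 2, it was 7.24% ± 0.450 in WT ovaries and 3.07% ± 1.58 in MP tumors, and the order by set broke, with 2.33% in MP tumor 2 of set 1 and 1.92% in MP tumor 4 of set 2. As a share of reads, MP tumor 5 of set 2 (1.29%) and MP tumor 10 of set 3 (1.26%) also crossed.

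**Figure D2:**
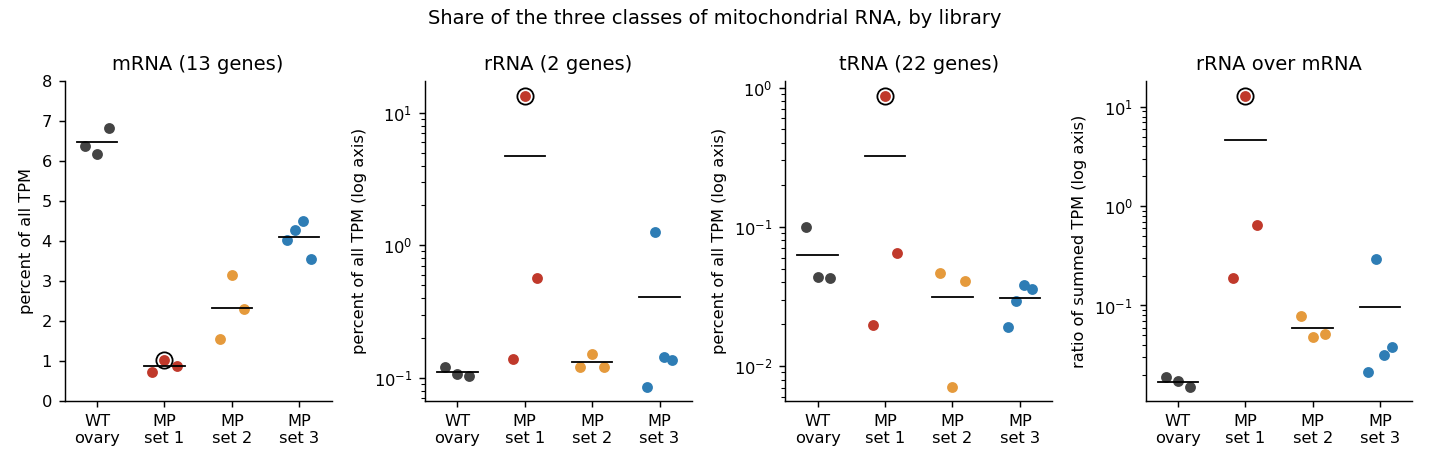
Percent of all TPM taken by mitochondrial mRNA (axis from 0), rRNA and tRNA (log axes), and the ratio of summed rRNA to summed mRNA TPM (log axis), with a point per library, a line at the mean of each group and a ring around MP tumor 2. The mRNA share of all 10 tumors (0.724% to 4.51%) lies below the ovaries (6.17% to 6.84%), whereas their rRNA over mRNA ratio (0.0211 to 13.003) lies above the ovaries (0.0152 to 0.0190).

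Among the complex I subunits, mt-Nd1 (ENSMUSG00000064341, chromosome MT, 2751 to 3707), which sits in the membrane arm near the site of ubiquinone entry, had 13439, 11726 and 12467 TPM in WT ovaries and 1008 to 10721 TPM (median 4492) in MP tumors. No tumor reached the lowest ovary. The log2 fold change was -1.80 (standard error 0.67), which missed the threshold of 0.05 (adjusted P = 0.0774, limma with Benjamini-Hochberg adjustment over the 17277 genes tested).

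For mt-Nd2 (ENSMUSG00000064345, chromosome MT, 3914 to 4951), a core subunit of the proton-pumping arm, the WT ovaries had 7103, 6629 and 6774 TPM and the MP tumors 561 to 4152 TPM (median 1968). The groups did not overlap, and mt-Nd2 fell (log2 fold change -1.98 ± 0.61, SE, and adjusted P = 0.0388 by limma).

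The largest decrease was that of mt-Nd4 (ENSMUSG00000064363, chromosome MT, 10167 to 11544), another subunit of the pumping arm, with 4381, 4432 and 5353 TPM in WT ovaries and 318 to 2775 TPM (median 1435) in MP tumors. Again every tumor was below every ovary (log2 fold change -2.11 ± 0.67, SE, and adjusted P = 0.0433 by limma).

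The subunit mt-Nd5 (ENSMUSG00000064367, chromosome MT, 11742 to 13565), at the far end of the pumping arm, had 3661, 3140 and 3918 TPM in WT ovaries and 213 to 3907 TPM (median 1466) in MP tumors. MP tumor 9, at 3907 TPM, reached the ovaries and the other 9 tumors stayed below all of them. The change did not pass the test (log2 fold change -1.71 ± 0.76, SE, and adjusted P = 0.130 by limma).

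The gene mt-Nd6 (ENSMUSG00000064368, chromosome MT, 13552 to 14070) is the only mRNA gene on the minus strand, and it overlaps the end of mt-Nd5. It had 4683, 4049 and 5215 TPM in WT ovaries and 387 to 4697 TPM (median 2023) in MP tumors, where MP tumors 8 and 9 lay within the range of the ovaries and 8 tumors lay below it. Its log2 fold change was -1.51 with a standard error of 0.65 (adjusted P = 0.118 by limma). Whether reads were counted by strand is not given in the sources used here, so RNA of mt-Nd6 and RNA of the opposite strand at this place cannot be told apart.

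Complex III has a single mitochondrial subunit, cytochrome b, encoded by mt-Cytb (ENSMUSG00000064370, chromosome MT, 14145 to 15288), which carries the quinone-binding sites. It had 13278, 13837 and 15755 TPM in WT ovaries and 2165 to 11461 TPM (median 6456) in MP tumors, with no overlap (log2 fold change -1.46 ± 0.53, SE, and adjusted P = 0.0687 by limma).

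Of complex IV, only mt-Co1 (ENSMUSG00000064351, chromosome MT, 5328 to 6872), the catalytic subunit of cytochrome c oxidase, had reads. It was at 17343, 17906 and 18904 TPM in WT ovaries and at 2449 to 10839 TPM (median 8773) in MP tumors. The tumors stayed below every ovary, and mt-Co1 fell (log2 fold change -1.46 ± 0.46, SE, and adjusted P = 0.0406 by limma). Neither mitochondrial subunit of ATP synthase had a value above 0.

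In all, 3 of the 7 mRNAs (mt-Nd2, mt-Nd4 and mt-Co1) were called lower and 0 higher, where 14.3% of all genes tested were lower and 2.51% were higher. For 5 of the 7 the groups did not overlap, against 16.4% of all genes with every tumor below every ovary and 3.02% with every tumor above. Their median log2 fold change was -1.71, and that of all genes was -0.58. The call was weak for each gene: it went to 0 of 7 without any 1 of WT ovaries 1, 2 and 3 or without MP tumor 4, to 1 without MP tumor 2 (mt-Co1, with 14.0% of all genes lower), 3 or 6, and to 5 without MP tumor 9. With median-of-ratios scaling, which moved the median of all genes to 0.01, mt-Nd4 alone was called (log2 fold change -1.39, adjusted P = 0.0462, with 10.5% of all genes lower) and all 7 stayed below 0 (-1.39 to -0.73).

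**Figure D3:**
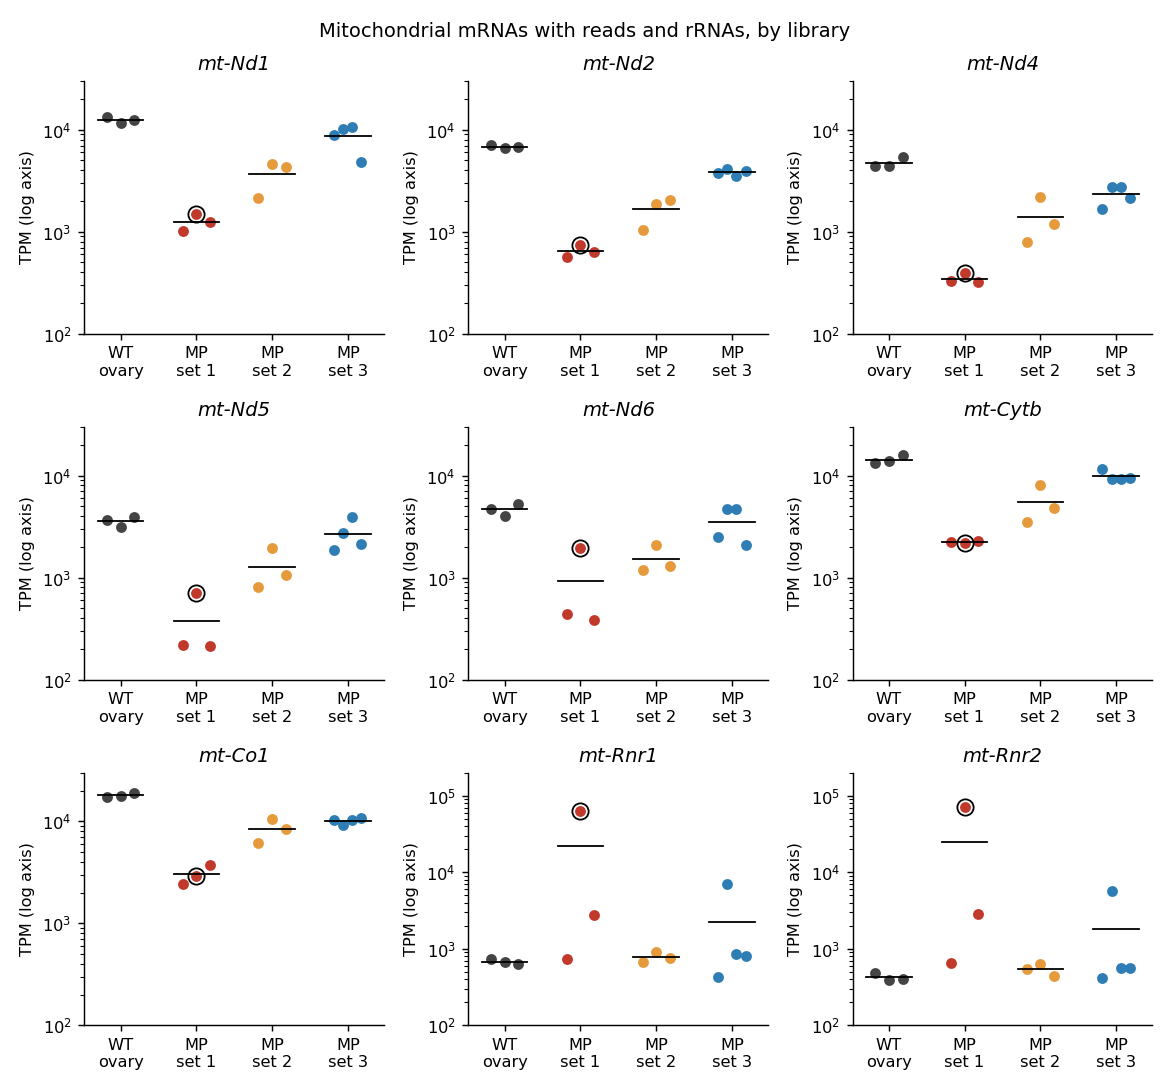
TPM (log axes) of the 7 mitochondrial mRNAs with reads and of both rRNAs, with a point per library grouped as WT ovary and MP tumors of library sets 1, 2 and 3, a line at the mean of each group and a ring around MP tumor 2. The mRNAs of the set 1 tumors lie lowest (mt-Co1 at 2449 to 3710 TPM against 17343 to 18904 in ovaries), while mt-Rnr1 and mt-Rnr2 reach 63531 and 71333 TPM in MP tumor 2.

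Within library set 1, where both groups were present, all 7 mRNAs were called lower, with log2 fold changes from -3.76 for mt-Nd4 to -2.60 for mt-Co1 (limma adjusted P from 2.44e-05 to 0.00413). The background was also far lower in this comparison, since 62.4% of all genes were called lower and their median log2 fold change was -1.44. The values were tight in most cases: mt-Cytb had 2238, 2165 and 2274 TPM in MP tumors 1, 2 and 3, which is 15.6% of the WT mean, and mt-Nd4 had 330, 394 and 318 TPM, or 7.36% of it. MP tumor 2 differed from the other 2 in mt-Nd5 (704 TPM against 218 and 213) and mt-Nd6 (1953 TPM against 440 and 387). Without MP tumor 2 all 7 were again called lower, from -4.04 for mt-Nd5 to -2.58 for mt-Co1, where 62.8% of all genes were lower and 12.5% higher.

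**Figure D4:**
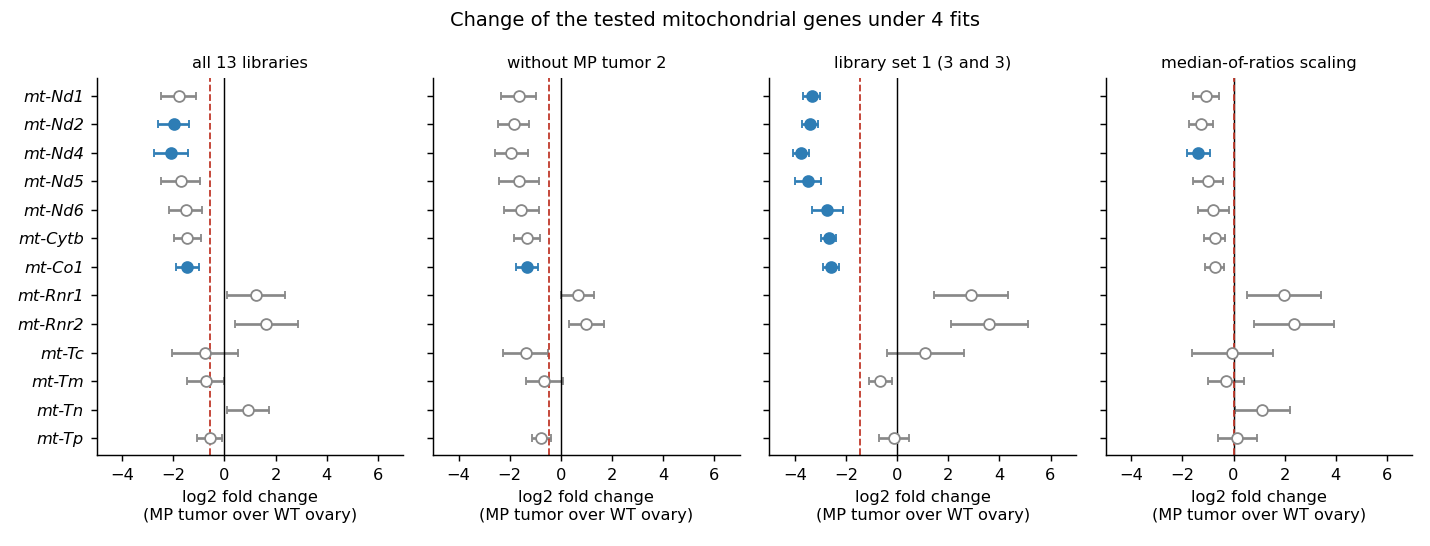
Log2 fold changes of MP tumors over WT ovaries with standard errors for the 7 mRNAs, 2 rRNAs and the tRNA genes tested (4 with all libraries under either scaling, 3 in the other fits), in 4 fits (all 13 libraries, without MP tumor 2, library set 1 alone, median-of-ratios scaling), where filled points passed an adjusted P of 0.05 and the dashed line is the median of all genes in that fit. All mRNA points lie left of that line in each fit, and 3, 1, 7 and 1 of them are filled.

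In TPM, the 3 tumors of set 1 had the lowest mean of the sets for each of the 7 mRNAs, which is given as a description. Against the WT mean, the set means were 16.8%, 46.3% and 56.2% for mt-Co1 in sets 1, 2 and 3, 9.94%, 29.6% and 68.7% for mt-Nd1, and 10.6%, 35.5% and 74.3% for mt-Nd5. The size of this difference depended on the scaling. On the log2 scale, set 1 minus the other sets came to -1.63 for mt-Co1 and -2.22 for mt-Nd1 in TPM, where the median of all genes was -0.95, and to -0.31 and -0.90 with median-of-ratios scaling, where it was -0.0025. Depth was 10564737 to 19906507 reads in the tumors of set 1 and 3892690 to 17178256 in those of sets 2 and 3, and its part was not tested. A set holds few tumors and no other label tells the tumors apart, so library set and differences between tumors cannot be told apart.

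The order of the 7 mRNAs differed between libraries. Per length, mt-Co1 was the most abundant of the 7 in 10 of 13 libraries, mt-Nd1 in MP tumors 8 and 9 and mt-Cytb in MP tumor 7, whereas mt-Nd2 and mt-Nd4 ranged from rank 4 to 7 and mt-Nd6 from rank 3 to 7. In WT ovaries the order by mean TPM was mt-Co1 (18051 ± 791, SD, n = 3), mt-Cytb (14290 ± 1299), mt-Nd1 (12544 ± 859), mt-Nd2 (6835 ± 243), mt-Nd4 (4722 ± 547), mt-Nd6 (4649 ± 584) and mt-Nd5 (3573 ± 396). The ranges of mt-Cytb and mt-Nd1 overlapped in the ovaries, as did those of mt-Nd4 and mt-Nd6. These levels divide by the full gene length. Divided by the windows without a nuclear copy, mt-Nd4 came to 12962 and mt-Nd2 to 7806 in WT ovaries, so that mt-Nd4 took the place of mt-Nd2 in rank 4, and mt-Co1 came to 31300.0 and stayed first. The levels of mt-Nd4 and mt-Co1 per full length are therefore uncertain, while their changes between groups do not depend on the length used.

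Changes of single mRNAs against the mean of the 7 ranged from -0.39 (mt-Nd4, standard error 0.65) to 0.26 (mt-Co1, standard error 0.77) on the log2 scale, and 0 of 7 were called by limma (0 with an unadjusted P under 0.05). These errors are moderated toward the variance of all genes on this scale, which holds the variation of the pool itself, so the missing calls do not show that the composition was stable. In the share of the pool, mt-Nd4 took 6.86% to 7.83% in WT ovaries and 3.63% to 6.95% in MP tumors, below every ovary in 9 of 10 tumors, and mt-Nd2 took 9.91% to 11.1% and 6.01% to 11.2%, likewise below in 9 of 10. The share of mt-Co1 was 27.1% to 29.0% in WT ovaries and 21.5% to 42.3% in MP tumors. With all 3 tumors of set 1, 0 of 7 were called by limma (0 with an unadjusted P under 0.05, adjusted P = 0.458 to 0.812). Without MP tumor 2, a choice made after the data were seen, mt-Co1 (0.79, limma adjusted P = 0.00938) and mt-Cytb (0.72, 0.00648) were higher than the mean of the 7 and mt-Nd4 (-0.48, 0.0433) and mt-Nd5 (-0.67, 0.0116) lower. That comparison rests on 2 tumors, and 77.8% of all genes were called higher and 4.32% lower in it. MP tumor 2 itself had 18.8% of its pool in mt-Nd6, against 4.42% to 10.9% in all other libraries.

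The 2 rRNAs did not follow the mRNAs. The small-subunit rRNA of the mitochondrial ribosome, mt-Rnr1 (12S, ENSMUSG00000064337, chromosome MT, 70 to 1024), had 729, 681 and 638 TPM in WT ovaries and 434 to 63531 TPM (median 831) in MP tumors. The large-subunit rRNA, mt-Rnr2 (16S, ENSMUSG00000064339, chromosome MT, 1094 to 2675), had 483, 386 and 399 TPM in WT ovaries and 420 to 71333 TPM (median 596) in MP tumors. MP tumor 2 was the highest for both, MP tumor 8 followed with 6944 and 5653 TPM and MP tumor 3 with 2782 and 2889 TPM. The remaining 7 tumors were at 434 to 899 TPM for mt-Rnr1 and 420 to 652 TPM for mt-Rnr2. Neither rRNA was called (log2 fold change 1.25 with a standard error of 1.13, adjusted P = 0.445 by limma for mt-Rnr1 and 1.64, standard error 1.22, adjusted P = 0.353 for mt-Rnr2). Without MP tumor 2 the log2 fold changes were 0.66 (adjusted P = 0.489) and 1.00 (adjusted P = 0.322).

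The RNAs that were high in MP tumor 2 were not mitochondrial alone. Rn7sk, a nuclear RNA that is transcribed without a poly(A) tail, was at 2445 TPM in MP tumor 2, at 39.7 to 53.5 TPM in WT ovaries and at 39.9 to 408 TPM in the other tumors. It was 1 of 6 such RNAs looked up after the data were seen. Of these 6, 3 were at 0 in every MP tumor and 4 in every WT ovary. The sum of all 6 in MP tumor 2 was 2453 TPM, nearly all of it Rn7sk. The most abundant gene of MP tumor 2, CT010467.1, had 208853 TPM there, 887 to 1058 TPM in WT ovaries and at most 10855 TPM in the other tumors. Mitochondrial rRNA came to 13.5% of TPM in MP tumor 2, 0.104% to 0.121% in WT ovaries and 0.0854% to 1.26% in the other tumors. The part of the efficiency of polyA selection in these values was not tested.

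Set against the mRNAs of the same library, rRNA was higher in every tumor. The ratio of summed rRNA to summed mRNA TPM was 0.0190, 0.0173 and 0.0152 in WT ovaries and 0.0211 to 13.003 in MP tumors (0.0211 to 0.646 without MP tumor 2). It was 0.191, 13.003 and 0.646 in MP tumors 1, 2 and 3, 0.0485 to 0.0776 in set 2 and 0.0211 to 0.295 in set 3. Relative to the mean of the 7 mRNAs, the log2 fold change for mt-Rnr1 was 2.96 with a standard error of 1.33 (adjusted P = 0.0926 by limma) and that for mt-Rnr2 3.36 with a standard error of 1.46 (adjusted P = 0.0860), and neither passed the threshold. Without MP tumor 2 they were 2.27 (adjusted P = 0.0719) and 2.61 (adjusted P = 0.0525). Relative to the same mean 27.5% of all genes were called higher, 1.71% were called lower, and the median of all genes was 1.14. Because the pool itself was lower in tumors, a gene that kept its TPM is higher on this scale. Within library set 1 both rRNAs were called higher on it, at 6.03 and 6.75 (limma adjusted P of at most 1.29e-14), beside 9534 of 15239 genes. Without MP tumor 2 there, both were called at 4.44 and 5.08 (limma adjusted P of at most 0.000221), beside 77.8% of all genes.

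Few tRNA genes could be measured. Of 22, 15 were listed at 0 in all 13 libraries, and mt-Tq, mt-Ta and mt-Te had 1 or 2 reads in all. The tRNA genes are 59 to 75 bases long, below the read length of 76 bases, and only mt-Tn, mt-Tc and mt-Tp have 76 or more bases around them that no other annotated gene touches. Only mt-Tc and mt-Tp had reads in every library, and their gene sequences are printed with the anticodon (bases 3 to 5 of the 7-base loop closed by a 5-base stem) in capitals.
mt-Tc (chrMT:5192-5257, minus strand): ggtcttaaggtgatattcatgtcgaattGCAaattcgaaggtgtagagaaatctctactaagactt
mt-Tp (chrMT:15356-15422, minus strand): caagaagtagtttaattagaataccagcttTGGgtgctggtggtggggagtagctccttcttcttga

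The cysteine tRNA gene mt-Tc had 657, 187 and 243 TPM in WT ovaries and 12.0 to 8197 TPM (median 195) in MP tumors. MP tumor 2 was far above the rest, and the next highest library was WT ovary 1. The value rests on few reads outside set 1, from 1 in MP tumor 5 to 49 in MP tumor 8. The proline tRNA gene mt-Tp had 340, 245 and 185 TPM in WT ovaries and 58.99 to 532 TPM (median 165) in MP tumors, again highest in MP tumor 2. The groups overlapped for both. All tRNA genes together took 0.0430% to 0.1003% of TPM in WT ovaries and 0.00710% to 0.875% in MP tumors.

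Of the 4 tRNA genes that passed the filter on low values, 0 were called by limma (0 with an unadjusted P under 0.05), with log2 fold changes of -0.76 (standard error 1.28, adjusted P = 0.688) for mt-Tc, -0.58 (0.48, 0.397) for mt-Tp, -0.74 (0.71, 0.472) for the methionine tRNA gene mt-Tm and 0.91 (0.82, 0.444) for the asparagine tRNA gene mt-Tn. Both mt-Tm, with at most 4 reads in a library, and mt-Tn, with 8 reads in MP tumor 2, 2 in MP tumor 3 and 1 in MP tumor 6, rest on very few reads, and mt-Tn was called higher with limma-voom (3.24, adjusted P = 0.00703) and with the library set as a covariate (2.16, adjusted P = 0.0476). The value of mt-Tc was -1.37 without MP tumor 2, -0.34 without MP tumor 5, -0.51 without MP tumor 7 and -0.22 without WT ovary 1, and was not called in any of these 4 fits. The 4 genes mt-Tm, mt-Tq, mt-Ta and mt-Te had reads although no stretch of 76 bases is their own. The length of the counted reads after trimming is not given in the sources used here, and RNA of the tRNA, of precursors that extend past it and of the opposite strand cannot be told apart.

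Few nuclear genes for mitochondrial proteins passed the test in TPM. Of 162 genes tested in 11 lists, 3 were called higher and 2 lower, where 2.51% of all genes were higher and 14.3% lower, and their median log2 fold change was 0.23. This median was 0.95 with median-of-ratios scaling, 0.60 with limma-voom and 0.52 with quantile normalization, where the median of all genes was 0.012, -0.46 and 0.080. In these fits 18 of 161, 23 of 162 and 33 of 162 were called higher, beside 1268 of 16916, 1876 of 17277 and 1904 of 17277 of all genes. Called lower were 1, 2 and 2, beside 1776, 4045 and 2091 of all genes. The 81 nuclear subunits of the respiratory chain and ATP synthase had a median of 0.25, with 1 called in each direction. By complex, the median was 0.16 for complex I (36 genes, 0 called), 0.09 for complex II (4 genes, 0 called), 0.56 for complex III (9 genes, 0 called), 0.48 for complex IV (16 genes, 1 lower) and 0.40 for complex V (16 genes, 1 higher), beside -0.58 over all genes. The mitochondrial subunits of the same complexes all had negative values, from -2.11 to -1.51 for complex I, -1.46 for mt-Cytb of complex III and -1.46 for mt-Co1 of complex IV.

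The called subunits were Atp5o, which joins the catalytic head of ATP synthase to its peripheral stalk, and Cox4i2, an alternative form of a complex IV subunit. Atp5o was at 247 to 286 TPM in WT ovaries and at 396 to 988 TPM in MP tumors (log2 fold change 1.12 ± 0.31, SE, and adjusted P = 0.0235 by limma). Cox4i2 was at 15.4 to 24.2 TPM in WT ovaries and at 1.35 to 14.0 TPM in MP tumors (log2 fold change -1.85 ± 0.55, SE, and adjusted P = 0.0327 by limma). Neither overlapped between the groups. The call of Cox4i2 was lost with median-of-ratios scaling (log2 fold change -1.16, adjusted P = 0.185), quantile normalization (-0.92, 0.271) and a pseudocount of 0.1 (-2.09, 0.0537), and both calls were lost without any 1 of the 3 WT ovaries.

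**Figure D5:**
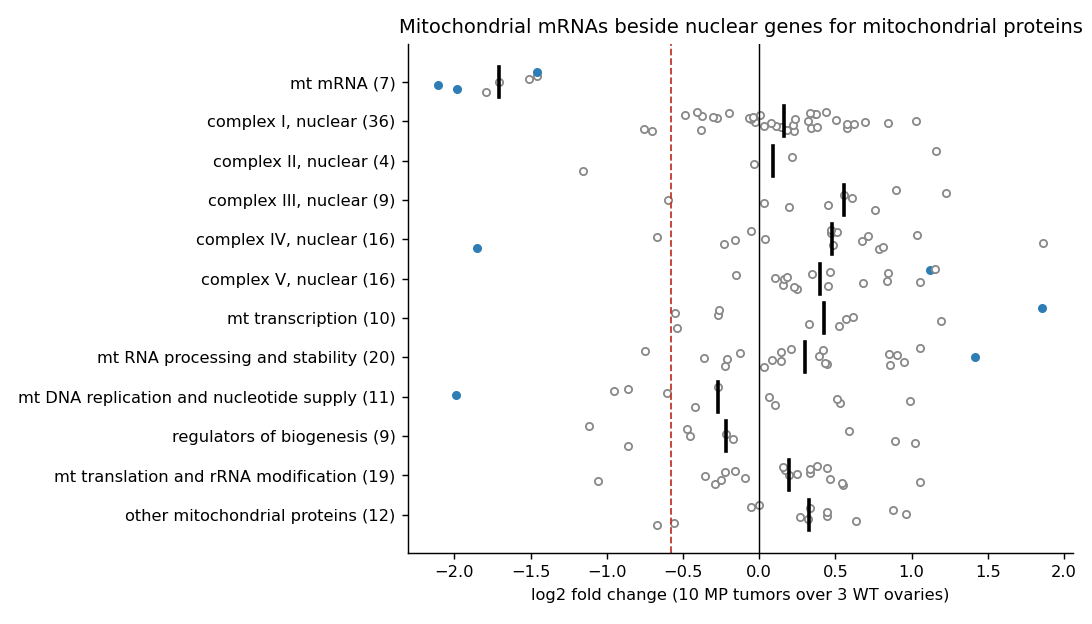
Log2 fold changes of 10 MP tumors over 3 WT ovaries for the 7 mitochondrial mRNAs and for nuclear genes in 11 lists (number tested in brackets), where each circle is a gene, filled circles passed an adjusted P of 0.05, the thick bar is the median of the list and the dashed line the median of all genes (-0.58). The mitochondrial mRNAs (median -1.71) lie left of that line, and the medians of the lists (-0.27 to 0.56) lie right of it.

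Among the genes that act on mitochondrial DNA and RNA, 3 further genes were called. Mrpl12, a mitochondrial ribosomal protein that also binds the mitochondrial RNA polymerase, rose from 82.7 to 105 TPM in WT ovaries to 92.8 to 926 TPM in MP tumors (log2 fold change 1.85, adjusted P = 0.0352 by limma), and only the lowest tumor lay within the range of the ovaries. Fastkd2, which binds 16S rRNA and is needed for assembly of the large ribosomal subunit, rose from 18.01 to 22.96 TPM to 27.9 to 116 TPM (log2 fold change 1.41, adjusted P = 0.0400 by limma). Tk2, the thymidine kinase that supplies nucleotides for mitochondrial DNA, fell from 59.9 to 63.8 TPM to 5.14 to 29.2 TPM (log2 fold change -1.99, adjusted P = 0.00809 by limma). All 3 calls were lost without any 1 of WT ovaries 1, 2 and 3. The calls of Mrpl12 and Fastkd2 were also lost without the filter on low values and without MP tumor 1, 6, 7 or 8, that of Fastkd2 without MP tumor 3 or with the filter on 10 libraries, and that of Mrpl12 with median-of-ratios scaling.

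Of the transcription machinery itself, the genes named here did not pass the test over all 13 libraries. Tfam, which packages mitochondrial DNA and starts its transcription, averaged 48.6 TPM in WT ovaries (SD 1.93, n = 3) and 74.4 TPM in tumors (SD 25.9, n = 10; log2 fold change 0.53, adjusted P = 0.303 by limma). The mitochondrial RNA polymerase Polrmt was at 24.1 ± 1.17 and 21.1 ± 13.1 TPM (log2 fold change -0.54, adjusted P = 0.589) and its partner Tfb2m at 12.1 ± 1.10 and 16.02 ± 4.69 TPM (log2 fold change 0.33, adjusted P = 0.548). Lrpprc, which stabilizes mitochondrial mRNAs, was at 44.2 ± 9.36 and 49.9 ± 24.8 TPM (log2 fold change 0.03, adjusted P = 0.967), and the mitochondrial poly(A) polymerase Mtpap was at 48.6 ± 0.627 and 44.2 ± 15.1 TPM (log2 fold change -0.23, adjusted P = 0.692). Slirp, the partner of Lrpprc, was at no more than 0.185 TPM in any library and was not tested. Why its listed value was so low was not examined, and it is not taken as silent.

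Regulators of mitochondrial biogenesis were mixed, and 0 of 9 were called over all 13 libraries in TPM. With median-of-ratios scaling 2 of 8 were called higher (1268 of 16916 genes) and with quantile normalization 3 of 9 (1904 of 17277 genes). Within library set 1, 6 of 9 were called lower (9504 of 15239 genes). The coactivator Ppargc1a was at 1.501 ± 0.136 TPM in WT ovaries and 0.448 ± 0.548 TPM in MP tumors (log2 fold change -0.86, adjusted P = 0.0612 by limma). Its relatives Ppargc1b (1.32 ± 0.0685 and 4.99 ± 3.81 TPM, log2 fold change 1.03, adjusted P = 0.270) and Pprc1 (21.9 ± 2.40 and 56.3 ± 40.6 TPM, 0.89, adjusted P = 0.373) had values above 0, as did the nuclear receptor Esrra (0.59, adjusted P = 0.295). The transcription factors Nrf1 (-0.17, adjusted P = 0.796) and Gabpa (-0.46, adjusted P = 0.573) had values below 0. With median-of-ratios scaling the values of Nrf1, Gabpa, Polrmt and Mtpap were above 0. Called higher with this scaling were Esrra (1.28, limma adjusted P = 0.0147), Pprc1 (1.57, 0.0208) and Tfb2m (0.99, 0.0487), beside 1268 of 16916 genes. Within library set 1 Pprc1 (-0.70, limma adjusted P = 0.0486), Ppargc1b (-0.45, 0.0426) and Mtpap (-0.91, 0.0494) were called lower, beside 62.4% of all genes. Pprc1 was thus called in opposite directions.

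Within library set 1 the nuclear lists split. Of the 81 respiratory chain and ATP synthase subunits 21 were called higher and 3 lower, with a median log2 fold change of 0.46, where 6.84% of all genes were called higher and 62.4% lower. Of the other 81 genes 12 were higher and 22 lower (median -0.38), among them Polrmt (-2.08, limma adjusted P = 0.00553), Gabpa (-1.42, adjusted P = 0.00336) and Ppargc1a (-1.26, adjusted P = 0.00011) on the lower side. Without MP tumor 2 the subunits called were 52 higher and 3 lower (median 0.91) and the other genes 25 higher and 19 lower (median 0.00), where 12.5% of all genes were called higher and 62.8% lower.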

How the data were processed

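RNA-seq of polyA-selected RNA (single-end reads of 76 bp) was available for 3 WT ovaries and 10 MP tumors as a single table of TPM values for 53465 genes, which the authors deposited, and no column was left unused. The submitters' processing notes name FastQC 0.11.5, Trimmomatic 0.36, STAR 2.5.3a, featureCounts 1.6.3 and the build GRCm38 (mm10). The protocol label names another build, counter and unit, which the table's mouse genes and sums of 1000000 contradict. The treatment of reads with several matches and of strand is not given in the sources used here. Values times gene length were whole multiples of 1 read (tolerance 0.001) and gave back reads per library. For a gene of 1 kb, 1 read equalled 0.0513 to 0.790 TPM. Groups were taken from the sample labels. Replicates came from separate animals, and the repeat libraries of a group differed beyond sampling noise (chi-square over degrees of freedom of at least 28.4).

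Log2(TPM + 1) was compared with limma 3.58.1 in R 4.3.3 (trend, robust) over all 13 libraries without covariates, for genes with at least 1 TPM in at least 3 libraries, and P values were adjusted by Benjamini-Hochberg with a threshold of 0.05. Fold changes are on this scale, which understates changes of low genes. For changes within the mitochondrial mRNA, the library mean of log2(TPM + 1) over the 7 mRNA genes with reads was subtracted. The mean had been planned over all 13, of which 6 were at 0, and that version became an alternative. On simulated data for this comparison (16423 genes, 200 changed 4-fold) 76% of the changed genes were recovered. The simulated counts had the same spread for all genes, no effect of library set and no library like MP tumor 2. The share recovered may therefore not hold for the real tumors. Sequence features were computed from GENCODE M21 transcripts in Python 3.11.15 (pandas 2.3.3, numpy 2.4.6), and figures were drawn with matplotlib 3.10.9.

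Named were all genes of chromosome MT (tRNA genes where they passed the filter), 12 nuclear regulators in every case, and in each nuclear list the gene with the largest moderated statistic among those called in each direction. The members and lists were chosen with earlier results of these data known. Alternatives were other scalings, filters, pseudocount, limma options, limma-voom on the reads, library set as covariate or set 1 alone, a replicate block, and leaving out each library. The fits within set 1 without MP tumor 2, the comparison of the tumors of set 1 with those of the other sets and the pool of 7 genes were added after seeing the data. Rn7sk, with the other RNAs without a poly(A) tail, and CT010467.1 were also chosen after seeing the data.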

Additional observations from a re-analysis of the deposited data

Results flagged for a closer look

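Across the 10 MP tumors, 33 measures were examined for a single library far from the others (gap to the nearest library over the whole range, Dixon's 95% limit), and 10 met it, 8 of them in MP tumor 2. Chance gives about 1.65 among 33 independent measures, but these overlap (the rRNA share is the sum of both rRNA genes, and mt-Tc is most of the tRNA share in MP tumor 2). The rRNA of this library was also known to be extreme when the genes were chosen, so the values are a description and no test. In this library mt-Rnr1 was at 63531 TPM (next highest tumor 6944), mt-Rnr2 at 71333 TPM (5653), mt-Tc at 8197 TPM (451), mt-Tp at 532 TPM (244) and mt-Tn at 20.3 TPM (5.002). Mitochondrial rRNA took 13.5% of TPM (1.26% in the next tumor) and mitochondrial tRNA 0.875% (0.0648%). Esrra was lowest in the same library at 14.4 TPM, where the next lowest tumor had 36.2 TPM. Outside MP tumor 2, Gabpa was at 159.6 TPM in MP tumor 10 (next 64.9), the library with 187 TPM of Trp53, and Ppargc1a was at 1.83 TPM in MP tumor 9 (next 0.720). None of the 7 mitochondrial mRNAs was among these 10 measures. Nuclear protein-coding genes held 44.5% of TPM in MP tumor 2 and 81.5% to 91.5% in the other tumors.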

How the results depend on the processing

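The 7 mitochondrial mRNAs had negative log2 fold changes in all alternatives run, but the number called lower (3 of 7) depended on the processing. It was 7 with the library set as a covariate and 7 within library set 1, with or without MP tumor 2, 5 with limma-voom on the reads, 1 with median-of-ratios scaling, 1 without trend and robust fitting, 0 without the filter on low values, 0 with at least 1 TPM required in 10 libraries, and 0 to 5 when each library was left out. The cause was not tested. Sets 2 and 3 hold no WT ovary. The covariate, set 1 and replicate block fits therefore gave the same log2 fold changes for the 7 mRNAs (-3.76 to -2.60), from the same 3 tumors. Among rRNAs, 1 was called higher with the library set as a covariate and 1 within set 1 without MP tumor 2. Of tRNA genes 1 was called higher with the covariate, 1 with voom (mt-Tn), and 2 lower without the filter, where 3631 of 32961 genes were lower. The genes mt-Tq, mt-Ta and mt-Te, tested only without the filter, had 1 or 2 reads in all, each of them in WT ovaries. Relative to the mRNA pool, both rRNAs (2) were called higher with the covariate, without the filter, with quantile normalization, and within set 1 with or without MP tumor 2, and 0 to 1 with each library left out. The genes called higher on that scale, out of all tested, were 10809 of 17277 with the covariate, 19541 of 32961 without the filter, 7226 of 17277 with quantile normalization, 9534 of 15239 in set 1 and 11665 of 14990 there without MP tumor 2. Within set 1 without MP tumor 2, 2 mRNAs were higher and 2 lower on that scale. Of tRNA genes, 0 of 4 were called on that scale over all 13 libraries. Called higher were 4 of 4 with the covariate and 3 of 3 in set 1, with or without MP tumor 2, or with the block. With voom it was 1 of 4 (4465 of 17277 genes) and without the filter 1 of 7.

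Over all genes, 433 were higher and 2463 lower. The numbers higher were 894 with the covariate, 1876 with voom, 1268 with median-of-ratios scaling, 705 with nuclear coding genes set to a total of 1000000, 1904 with quantile normalization, 1043 within set 1 and 1875 without MP tumor 2 there, and 65 to 637 with each library left out. Lower were 8534 with the covariate, 4045 with voom, 900.0 with the filter on 10 libraries, 9504 within set 1, 9419 without MP tumor 2 there, and 604 to 3238 with each library left out. Of the nuclear lists (3 higher, 2 lower), the counts higher were 33 with the covariate, 23 with voom, 18 with median-of-ratios, 1 without the filter, 12 with nuclear coding genes set to a total of 1000000, 33 with quantile normalization, 33 in set 1, 77 there without MP tumor 2, and 0 to 7 with each library left out. Those lower were 19 with the covariate, 1 with median-of-ratios, 1 with a pseudocount of 0.1, 25 in set 1, 22 there without MP tumor 2, and 0 to 3 with each library left out.

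Replicate numbers are shared by WT ovaries and MP tumors of set 1, which are different animals (correlations of same-numbered deviations -0.096, -0.021 and 0.001). With the replicate number as a block, 7 mRNAs and 1 tRNA gene (mt-Tm) were lower, 2 rRNAs were higher relative to the pool (as were 8693 of 15239 genes on that scale), and in TPM 1043 and 9620 of all genes and 29 and 20 of the lists were higher and lower.

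The sign turned for mt-Tm with voom (0.73), mt-Tc with the covariate, the block and set 1 (1.10 each), mt-Tp with median-of-ratios (0.14), and mt-Co1 relative to the pool of all 13 (-0.53) and with quantile normalization (-0.18). With the covariate, the block and set 1 it turned for Lrpprc (-0.66), Ppargc1b (-0.45), Pprc1 (-0.70) and Tfb2m (-0.049), and within set 1 without MP tumor 2 for Lrpprc (-0.35), Ppargc1b (-0.38) and Pprc1 (-0.76). Leaving out single libraries moved Lrpprc between -0.14 and 0.18. With median-of-ratios, quantile normalization and voom the values were 0.47, 0.31 and 0.091 for Mtpap and 0.48, 0.75 and 0.13 for Nrf1, and with the first 2 of these 0.24 and 0.14 for Gabpa and 0.10 and 0.24 for Polrmt. None of the values that turned was called in the fit over all 13 libraries (mt-Co1 was called lower there in TPM, not relative to the pool).

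As a share of reads in place of TPM, mRNA came to 2.34% in WT ovaries and 1.11% in MP tumors (0.880% of TPM in set 1), and rRNA to 0.0392% and tRNA to 0.00122% in WT ovaries. Over the TPM of nuclear coding genes, mRNA was 7.24% and rRNA 0.124% in WT ovaries. With each library left out, the mean mRNA share was 6.28% to 6.61% in WT ovaries and 2.39% to 2.81% in MP tumors, the rRNA share in MP tumors 0.303% to 1.79%, and the tRNA share 0.0433% to 0.0719% in WT ovaries and 0.0336% to 0.130% in MP tumors.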
